A study of Mus musculus with 9 samples.

Results

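Mucins are long glycoproteins that coat the surface of the gut, and the genes described here are 4 membrane-bound mucins and 6 enzymes that build sugar chains on mucins and related molecules. The mucins are Muc1, Muc4, Muc13 and Muc20, and the enzymes are Galnt3, Galnt12, C1galt1, Gcnt3, B4galnt2 and B4galt4. They were chosen as a list of symbols, with earlier results of these data known, and found on the array through the RefSeq accession of each probe. All 10 were present, with 14 probes between them, out of 20660 named genes on the array. All 10 also passed the filter on dim probes, which left 14037 genes tested. Muc1 passed it through the 12 and 60 weeks arrays and B4galnt2 through the 0 and 60 weeks arrays. B4galt4 passed through the 12 weeks arrays alone, so a difference was built into the passing of these genes. Counts over the 10 genes, and the adjusted p-values of Muc1, of B4galnt2 and of both B4galt4 probes, are therefore a description. Expression was measured in mouse colon organoids, small epithelial structures grown in culture, with single-colour (Cy3) Agilent arrays and 3 arrays per group. The groups were untreated organoids at 0 weeks, organoids kept for 12 weeks with inflammatory reagents, and organoids kept for 60 weeks with inflammatory reagents. The labels name neither the reagents nor a strain, sex or age of the mice, and they do not say whether the 3 replicates of a group come from separate animals or cultures. P-values therefore measure the spread between these arrays, which may be technical. No untreated culture of 12 or 60 weeks was analysed here, so in every comparison the treatment and the time spent in culture cannot be told apart.

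Membrane-bound mucins carry an extracellular stretch rich in serine and threonine, to which sugars are attached, and a tail inside the cell. Mucin-type O-glycosylation begins in the Golgi when a polypeptide GalNAc transferase (the Galnt family) places N-acetylgalactosamine on a serine or threonine. C1galt1 then adds galactose to form the core 1 structure, Gcnt3 adds the branch that makes cores 2 and 4, and other transferases extend the chain and cap it with galactose, N-acetylgalactosamine, sialic acid, fucose or sulfate. In the colon the finished chains form much of the mucus layer and of the glycocalyx between the epithelium and luminal bacteria.

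Levels are given as log2 of the background-subtracted spot intensity relative to the 75th percentile of the same array, so that 0 is a probe as bright as that percentile and a step of 1 is a factor of 2. A probe's level depends on its own sequence, so levels are compared between arrays and not between probes. Between 49.2% and 52.8% of probes were well above background on each array, and no spot was saturated (0 on every array). The 12 weeks replicate 2 array stood apart from the rest of its group: across genes, it correlated at 0.978 and 0.977 with the other two arrays of its group, which correlated with each other at 0.992. Within the other groups every pair of arrays correlated at 0.990 to 0.996. The arrays lay on 2 slides. All 0 weeks arrays and the 12 weeks replicate 1 array were on the first row of slide 1, the other 12 weeks arrays and the 60 weeks replicates 1 and 2 were on its second row, and the 60 weeks replicate 3 array was alone on slide 2. Of the 12 general markers of colon epithelium, all 12 were well above background on at least 2 arrays of every group, and their summed signal overlapped between the groups.

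In the comparison of 12 weeks with 0 weeks, 5 of the 10 genes were higher (Muc1, Muc4, Muc13, Galnt12 and B4galt4) and 2 were lower (Muc20 and B4galnt2) at an adjusted p under 0.05 in limma. That makes 7 of 10 called, where 41.8% of all tested genes were called (19.1% higher and 22.7% lower). At 60 weeks against 0 weeks, 7 of the 10 were higher (Muc1, Muc4, Muc13, Galnt3, Galnt12, C1galt1 and B4galnt2) and 1 was lower (B4galt4), so that 8 were called against 32.8% of all tested genes (16.7% higher and 16.1% lower). At 60 weeks against 12 weeks, Muc1, Muc20, Galnt3 and B4galnt2 were higher and Galnt12 and B4galt4 were lower, which is 6 of 10 against 38.3% of all tested genes (20.7% higher and 17.6% lower). The groups did not overlap for 9, 9 and 7 of the 10 genes in these 3 comparisons, and for 54.5%, 56.4% and 47.2% of all tested genes. The median change of the 10 genes was 1.33 on the log2 scale at 12 against 0 weeks, or 1.29 with Muc1 set at its lower bound, 0.90 at 60 against 0 weeks and 0.60 at 60 against 12 weeks. The medians over all tested genes were -0.06, -0.04 and 0.02. Because the 10 genes were chosen with earlier results known, setting them beside all tested genes is a description and no test. Both comparisons against 0 weeks share the same 0 weeks arrays, so a gene high in both is not 2 independent observations. The moderated F test, which asks whether a gene differed among the 3 groups at all, called 9 of the 10 (all but Gcnt3) and 56.7% of all tested genes.

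**Figure D1:**
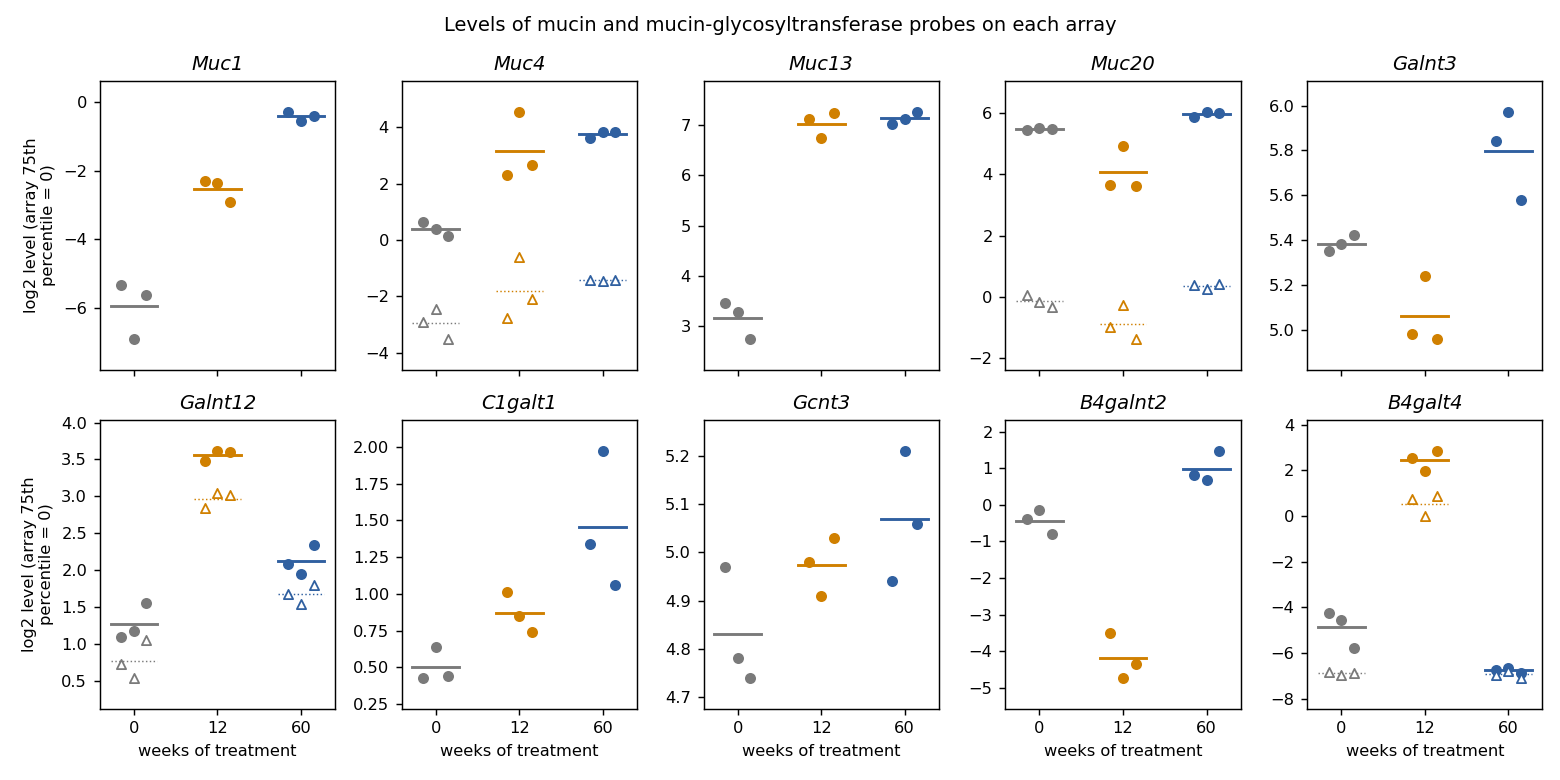
Level of each gene on each array (vertical axes, log2 scale with 0 at the array's 75th percentile, each panel with its own range) against weeks of treatment (horizontal axes); filled circles are the probe used, open triangles the second probe where there is one, and lines are group means. Muc1, Muc4 and Muc13 lie above the 0 weeks arrays at both later times, while B4galt4 is high at 12 weeks alone and B4galnt2 is low at 12 weeks alone.

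Among the 4 mucins, Muc13 and Muc4 were higher at both later times than at 0 weeks, with no called difference between 60 and 12 weeks. Muc1 was higher again at 60 than at 12 weeks, and Muc20 was lower at 12 weeks than in both other groups. Muc1, a widely expressed epithelial mucin whose tail takes part in signalling, is encoded on chromosome 3 (NM_013605). Its level was -5.33, -6.90 and -5.62 on the 0 weeks arrays, -2.30, -2.35 and -2.93 at 12 weeks, and the 60 weeks arrays gave -0.30, -0.55 and -0.42. The 3 groups did not overlap, and the 0 weeks spots were not well above background on any array, so only a lower limit of the change against 0 weeks can be given. Muc1 passed the filter through the later arrays alone, so its adjusted p-values against 0 weeks are a description. Muc1 was at least 4.64-fold higher at 12 weeks (adjusted p = 0.000238, limma) and at least 19.96-fold higher at 60 weeks (adjusted p = 1.99e-05, limma). At 60 against 12 weeks, where all spots were well above background, the log2 change was 2.10 ± 0.37 (SE, n = 3 arrays per group), or 4.30-fold (adjusted p = 0.00358, limma). With another background correction (normexp), with an offset of 50, the fitted changes against 0 weeks were 0.93 at 12 weeks and 2.52 at 60 weeks, both called but short of these limits, which hold for the processed signal.

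Muc4, a large membrane mucin that can bind the receptor ErbB2 in rat and human cells, lies on chromosome 16 (NM_080457). Its level was 0.62, 0.38 and 0.15 at 0 weeks, 2.30, 4.53 and 2.65 at 12 weeks, while the 60 weeks arrays had 3.62, 3.84 and 3.82. Both later groups lay wholly above the 0 weeks arrays, and they overlapped each other through the 12 weeks replicate 2 array, the highest of the 9. That array was 2.06 above the mean of the other 12 weeks arrays, a gap beyond the 95th percentile of 1.35 over all tested genes. Muc4 was higher by 2.78 ± 0.50 on the log2 scale at 12 against 0 weeks (6.85-fold, adjusted p = 0.00299, limma) and by 3.38 ± 0.50 at 60 against 0 weeks (10.4-fold, adjusted p = 0.00140, limma). The difference of 0.60 ± 0.50 between 60 and 12 weeks did not pass (adjusted p = 0.372, limma). Without the 12 weeks replicate 2 array it was 1.29 and passed (adjusted p = 0.000708, limma), so that array decides this call. A second, dimmer Muc4 probe gave smaller differences of the same sign, 1.14 ± 0.50 at 12 against 0 weeks (adjusted p = 0.111, limma) and 1.52 ± 0.50 at 60 against 0 weeks (adjusted p = 0.0593, limma), neither of which passed. With the slide row as a block, which leaves out the 60 weeks replicate 3 array, neither change of the brighter probe passed either: 1.92 at 12 against 0 weeks (adjusted p = 0.0665, limma) and 2.06 at 60 against 0 weeks (adjusted p = 0.183, limma).

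Muc13, a membrane mucin of the apical surface of intestinal epithelium, also lies on chromosome 16 (NM_010739). Its level was 3.46, 3.29 and 2.76 at 0 weeks, 7.11, 6.73 and 7.24 at 12 weeks, and the 60 weeks arrays gave 7.02, 7.11 and 7.25. Every later array lay above every 0 weeks array, and the 12 and 60 weeks arrays overlapped. The log2 change was 3.85 ± 0.20 at 12 against 0 weeks (14.5-fold, adjusted p = 4.68e-06, limma) and 3.96 ± 0.20 at 60 against 0 weeks (15.5-fold, adjusted p = 4.74e-06, limma). Between 60 and 12 weeks the difference was 0.10 ± 0.20 (adjusted p = 0.718, limma), and its sign turned under quantile normalization (-0.19).

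Muc20, a small membrane mucin that in human cells can bind the receptor Met, is a close neighbour of Muc4 on chromosome 16 (NM_146071). The pair lie on opposite strands with 1 annotated gene, the long non-coding RNA Gm34825, between them. The level of Muc20 was 5.45, 5.51 and 5.48 at 0 weeks, 3.66, 4.91 and 3.63 at 12 weeks, while the 60 weeks arrays had 5.88, 6.02 and 6.0. The 12 weeks arrays were the lowest and the 60 weeks arrays the highest, without overlap between any groups, and the 12 weeks replicate 2 array was 1.26 above the mean of the other two of its group. Muc20 was 2.67-fold lower at 12 than at 0 weeks (log2 change -1.41 ± 0.30, adjusted p = 0.00675, limma) and 3.74-fold higher at 60 than at 12 weeks (1.90 ± 0.30, adjusted p = 0.00218, limma). The 60 against 0 weeks difference of 0.49 ± 0.30 did not pass (adjusted p = 0.248, limma). It passed under 3 of 21 alternatives, among them the fit without the 12 weeks replicate 2 array (adjusted p = 0.00161, limma). That array enters this comparison only through the shared estimate of the spread. With the slide row as a block the difference was -0.14. The second Muc20 probe (NM_001145874) had differences of the same signs, -0.72 ± 0.25 at 12 against 0 weeks (adjusted p = 0.0567, limma, not called) and 1.23 ± 0.25 at 60 against 12 weeks (called, adjusted p = 0.00926, limma).

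The 250 bases before the annotated starts of the 3 mucins that were higher at both later times are given here because these genes moved together against 0 weeks. Sequences are from RefSeq promoters of build GRCm38.p6, which held 8 of the 10 genes (not Galnt12 or Gcnt3), and are written 5′ to 3′ on the gene's strand. Capitals mark TATAAA in Muc1 and Muc4, and TTCNNNGAA (the STAT motif) or TGANTCA (the AP-1 motif) in Muc13, for which 2 starts are annotated.
Muc1, chr3:89228806-89229055, plus strand: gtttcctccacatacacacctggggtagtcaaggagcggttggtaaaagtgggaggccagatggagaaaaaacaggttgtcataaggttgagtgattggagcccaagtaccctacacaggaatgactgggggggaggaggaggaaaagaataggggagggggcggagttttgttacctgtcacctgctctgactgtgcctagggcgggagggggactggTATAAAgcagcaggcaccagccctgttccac
Muc4, chr16:32735636-32735885, plus strand: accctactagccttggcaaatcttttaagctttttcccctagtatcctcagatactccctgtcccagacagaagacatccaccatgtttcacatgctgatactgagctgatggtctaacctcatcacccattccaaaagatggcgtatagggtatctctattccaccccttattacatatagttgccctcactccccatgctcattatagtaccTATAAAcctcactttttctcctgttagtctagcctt
Muc13 upstream start, chr16:33793787-33794036, plus strand: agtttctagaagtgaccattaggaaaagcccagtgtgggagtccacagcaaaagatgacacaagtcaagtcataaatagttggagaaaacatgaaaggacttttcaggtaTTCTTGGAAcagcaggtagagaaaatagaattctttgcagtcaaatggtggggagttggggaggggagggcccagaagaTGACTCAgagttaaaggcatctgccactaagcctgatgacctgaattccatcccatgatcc
Muc13 downstream start, chr16:33794239-33794488, plus strand: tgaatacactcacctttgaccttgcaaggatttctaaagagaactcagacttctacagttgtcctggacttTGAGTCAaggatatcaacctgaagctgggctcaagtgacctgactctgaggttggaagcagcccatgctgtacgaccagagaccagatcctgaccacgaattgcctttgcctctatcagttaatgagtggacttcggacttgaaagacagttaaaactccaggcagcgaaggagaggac
All motifs were searched on both strands over windows of 300 bases, of which 50 follow the start. TATAAA begins 31 bases before the start of Muc1 and 36 before that of Muc4, and 13.6% of all 32851 RefSeq promoters hold it. In the upstream Muc13 window the STAT match begins 140 bases and the AP-1 match 61 bases before the start, and in the downstream window an AP-1 match begins 179 bases before it. Over all promoters, 8.30% hold the STAT motif and 7.81% the AP-1 motif. The matches do not overlap each other. A match is a description of the letters and not evidence of binding.

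The 2 initiating enzymes differed. Galnt12, a polypeptide GalNAc transferase of the digestive tract on chromosome 4 (NM_172693), was higher at both later times and highest at 12 weeks. Its level was 1.09, 1.17 and 1.55 at 0 weeks, 3.48, 3.61 and 3.60 at 12 weeks, and the 60 weeks arrays gave 2.08, 1.94 and 2.34. The 3 groups did not overlap in any pair. Galnt12 was 4.91-fold higher at 12 than at 0 weeks (log2 change 2.30 ± 0.15, adjusted p = 1.59e-05, limma), 1.80-fold higher at 60 than at 0 weeks (0.85 ± 0.15, adjusted p = 0.00360, limma) and 2.72-fold lower at 60 than at 12 weeks (-1.45 ± 0.15, adjusted p = 0.000293, limma). The second Galnt12 probe gave 2.20, 0.90 and -1.30 in the same 3 comparisons, with all 3 called. Chromosome 4 as a whole was shifted: the median of its 921 tested genes was 0.26 at 12 against 0 weeks and 0.21 at 60 against 0 weeks. Relative to those medians Galnt12 was 2.04 higher at 12 weeks and 0.64 higher at 60 weeks. With the slide row as a block the 60 against 0 weeks change was 0.61 and did not pass (adjusted p = 0.200, limma).

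Galnt3, a polypeptide GalNAc transferase known outside the gut for modifying the hormone FGF23, is on chromosome 2 (NM_015736) and had a called change of less than a factor of 2 at 60 weeks. Its level was 5.35, 5.38 and 5.42 at 0 weeks, 4.98, 5.24 and 4.96 at 12 weeks, while the 60 weeks arrays had 5.84, 5.97 and 5.58. The groups did not overlap, with 12 weeks lowest and 60 weeks highest. At 60 against 12 weeks Galnt3 was 1.66-fold higher (log2 change 0.73 ± 0.13, adjusted p = 0.00320, limma). The 60 against 0 weeks difference of 0.41 ± 0.13 passed narrowly (adjusted p = 0.0371, limma), and it no longer passed when any 1 of the 0 weeks arrays was left out (adjusted p = 0.0821 to 0.103, limma), without the 60 weeks replicate 1 array (adjusted p = 0.108, limma) or without the 60 weeks replicate 2 array (adjusted p = 0.111, limma). It was also lost with the slide row as a block (adjusted p = 0.251, limma) and with no filter on dim probes (adjusted p = 0.0707, limma). The -0.32 ± 0.13 at 12 against 0 weeks did not pass (adjusted p = 0.0736, limma), but it did without the 12 weeks replicate 2 array (adjusted p = 0.0239, limma) and without the 60 weeks replicate 3 array (adjusted p = 0.0476, limma).

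Of the core enzymes, C1galt1 was higher at 60 than at 0 weeks and Gcnt3 had no called change. C1galt1, the enzyme that forms core 1, is on chromosome 6 (NM_052993). Its level was 0.43, 0.64 and 0.44 at 0 weeks, 1.01, 0.85 and 0.74 at 12 weeks, and the 60 weeks arrays gave 1.34, 1.97 and 1.06. The order of the groups was 0, 12 and 60 weeks without overlap, but neighbours in that order did not differ at the threshold. The log2 change was 0.36 ± 0.21 at 12 against 0 weeks (adjusted p = 0.205, limma) and 0.59 ± 0.21 at 60 against 12 weeks (adjusted p = 0.0587, limma). C1galt1 was 1.93-fold higher at 60 than at 0 weeks (0.95 ± 0.21, adjusted p = 0.0105, limma). The 60 against 12 weeks difference passed without the 60 weeks replicate 3 array (adjusted p = 0.0202, limma), with the slide row as a block (0.86, adjusted p = 0.0341, limma), with normexp (adjusted p = 0.0419, limma), with array weights (adjusted p = 0.0238, limma) and with the filter that asks for all 9 arrays above background (adjusted p = 0.0465, limma). The 60 against 0 weeks difference did not pass with the slide row as a block (1.36, adjusted p = 0.0538, limma).

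Gcnt3, the branching enzyme of mucin-secreting epithelia, is on chromosome 9 (NM_028087). Its level was 4.97, 4.78 and 4.74 at 0 weeks, 4.98, 4.91 and 5.03 at 12 weeks, while the 60 weeks arrays had 4.94, 5.21 and 5.06. The groups overlapped in every pair. The log2 differences were 0.14 ± 0.11 at 12 against 0 weeks (adjusted p = 0.307, limma), 0.24 ± 0.11 at 60 against 0 weeks (adjusted p = 0.117, limma) and 0.10 ± 0.11 at 60 against 12 weeks (adjusted p = 0.50, limma). The last of these turned its sign under quantile normalization (-0.03).

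The 2 enzymes that act further along the chain lay farthest from their 0 weeks levels at 12 weeks, and in opposite directions. B4galnt2 places the terminal N-acetylgalactosamine of the Sda blood group antigen and in mice is expressed in gastrointestinal epithelium. It lies on chromosome 11 (NM_008081). Its level was -0.39, -0.15 and -0.80 at 0 weeks, -3.49, -4.72 and -4.36 at 12 weeks, and the 60 weeks arrays gave 0.80, 0.68 and 1.46. All 12 weeks arrays lay below all others, only 1 of those 3 spots was well above background, and the 60 weeks arrays lay above the 0 weeks arrays. B4galnt2 passed the filter through the 0 and 60 weeks arrays, in which it was high, so its adjusted p-values against 12 weeks are a description. The fitted log2 change was -3.74 ± 0.34 at 12 against 0 weeks (adjusted p = 8.53e-05, limma). At 60 against 12 weeks it was 5.17 ± 0.34 (adjusted p = 2.06e-05, limma). The 12 weeks spots were dim, and with normexp these changes were -2.09 and 3.35, still called. At 60 against 0 weeks B4galnt2 was 2.69-fold higher (1.43 ± 0.34, adjusted p = 0.0134, limma). That call was lost without the 0 weeks replicate 3 array (1.25, adjusted p = 0.0526, limma), the lowest of its group, and the change was 2.24 with the slide row as a block (adjusted p = 0.0165, limma).

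B4galt4 transfers galactose to N-acetylglucosamine, and the human enzyme prefers acceptors that carry sulfate. It is the fourth of the 10 genes on chromosome 16 (NM_019804). Its level was -4.26, -4.56 and -5.79 at 0 weeks, 2.53, 1.97 and 2.84 at 12 weeks, while the 60 weeks arrays had -6.74, -6.66 and -6.85. The probe was bright at 12 weeks alone: 1 of the 3 spots was well above background at 0 weeks, 3 of 3 at 12 weeks and 0 of 3 at 60 weeks. Both B4galt4 probes passed the filter through the 12 weeks arrays, so the adjusted p-values given here are a description. The fitted change at 12 against 0 weeks was 7.32 ± 0.38 on the log2 scale (adjusted p = 4.49e-06, limma), or 4.87 with normexp. At 60 weeks B4galt4 was at least 149-fold lower than at 12 weeks on the scanner software's processed signal (adjusted p = 1.71e-06, limma). With normexp the fitted log2 change was -5.17, which is called but does not reach that limit. The fitted 60 against 0 weeks change was -1.88 ± 0.38 (adjusted p = 0.00648, limma), but with the spots below background at 60 weeks, and on 2 of the 3 arrays at 0 weeks, no fold is given. With normexp that change was -0.31 and was not called (adjusted p = 0.273, limma). The second B4galt4 probe was well above background at 12 weeks alone, on 3 of 3 arrays. It was at least 39.0-fold higher at 12 than at 0 weeks (adjusted p = 5.53e-07, limma) and at least 39.9-fold lower at 60 than at 12 weeks (adjusted p = 4.44e-07, limma), and below background in both of the other groups.

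The promoter windows of these 2 genes are printed for the same 250 bases, because the genes moved in opposite directions at 12 weeks. Capitals mark CG dinucleotides, the sites of DNA methylation in mammals.
B4galnt2, chr11:95914872-95915121, minus strand: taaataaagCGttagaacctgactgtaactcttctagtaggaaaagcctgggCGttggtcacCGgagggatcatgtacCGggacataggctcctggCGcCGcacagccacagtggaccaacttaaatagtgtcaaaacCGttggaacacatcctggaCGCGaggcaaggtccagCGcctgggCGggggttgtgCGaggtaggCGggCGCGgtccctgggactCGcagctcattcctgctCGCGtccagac
B4galt4, chr16:38742009-38742258, plus strand: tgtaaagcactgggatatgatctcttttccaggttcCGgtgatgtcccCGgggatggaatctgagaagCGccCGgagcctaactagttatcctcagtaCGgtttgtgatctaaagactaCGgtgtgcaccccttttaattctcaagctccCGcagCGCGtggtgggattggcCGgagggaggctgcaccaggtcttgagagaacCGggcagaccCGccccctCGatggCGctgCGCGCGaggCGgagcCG
Over the whole window of 300 bases B4galnt2 held 21 CG dinucleotides and B4galt4 held 27, against a median of 7 and quartiles of 3 and 20 over all RefSeq promoters of this length. Of the others, C1galt1 held 52 and Galnt3 41, Muc1 and Muc20 held 6 each, Muc4 held 1 and the 2 Muc13 windows held 0 and 4. The mucin windows were therefore at or below the median count and the windows of the enzymes above the upper quartile. Neither the TATAAA, the STAT nor the AP-1 motif matched in the B4galnt2 or B4galt4 windows. DNA methylation was not analysed here.

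**Figure D2:**
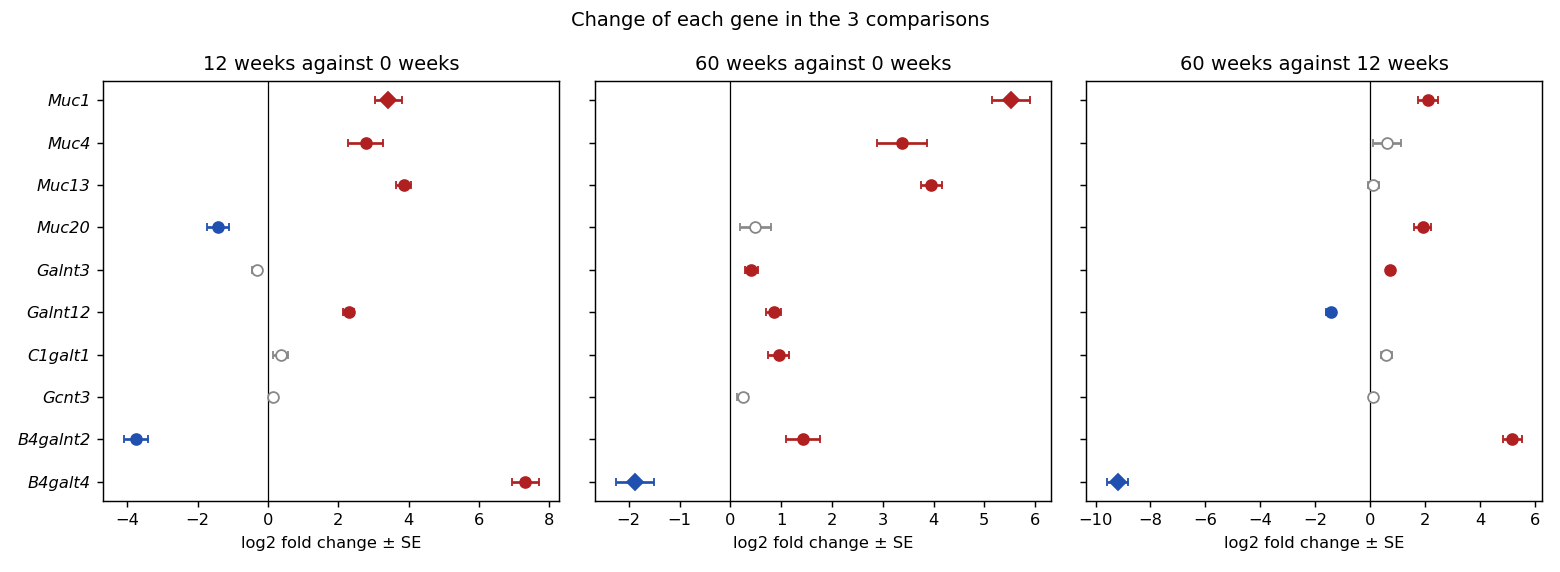
Log2 fold change with its SE (horizontal axes, a different range in each panel) for the 10 genes (rows) in the 3 comparisons; red and blue mark genes called higher and lower, open grey circles are not called, and diamonds mark changes in which a group had no spot well above background. B4galt4 lies at 7.32 at 12 against 0 weeks and at -9.20 at 60 against 12 weeks, and B4galnt2 has the opposite signs.

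For 4 of the 10 genes the array carries 2 probes, which gives a check within the same arrays. Galnt12 had nearly equal changes on both probes and B4galt4 was above background on all 3 arrays at 12 weeks, and on none at 60 weeks, with both probes. At 60 against 0 weeks the B4galt4 probes differed. The brighter one gave -1.88 and was called, and the dimmer one gave -0.06 and was not called (adjusted p = 0.880, limma). For Muc4 and Muc20, each change called on the brighter probe had the same sign and a smaller size on the dimmer one. The probes of a gene may target different transcripts, and which of the pair is nearer to the gene's RNA was not tested.

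**Figure D3:**
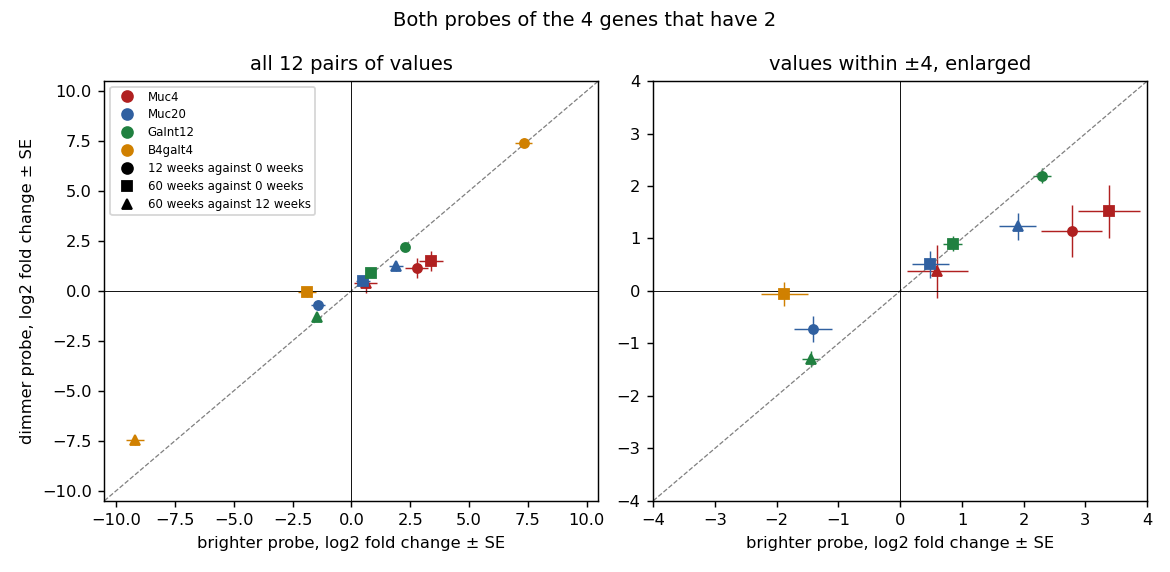
Log2 fold change of the dimmer probe (vertical axis) against that of the brighter probe (horizontal axis) with SEs, for Muc4, Muc20, Galnt12 and B4galt4 in the 3 comparisons; the dashed line marks equal changes, and the right panel enlarges values within 4 of 0. The Galnt12 points lie on or near the line, and the Muc4 points lie below it.

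The changes were set against the slide layout. Within the first row of slide 1, the 12 weeks replicate 1 array minus the mean of the 0 weeks arrays gave 3.65 for Muc1, 1.92 for Muc4, 3.94 for Muc13, -1.82 for Muc20, 2.21 for Galnt12, -3.04 for B4galnt2 and 7.40 for B4galt4. These 7 differences have the sign of the called change at 12 against 0 weeks. Within the second row, the mean of the 60 weeks replicates 1 and 2 minus the mean of the 12 weeks replicates 2 and 3 gave 2.22 for Muc1, 1.68 for Muc20, 0.80 for Galnt3, -1.60 for Galnt12, 5.28 for B4galnt2 and -9.11 for B4galt4, again with the sign of all 6 called changes. For every one of these called changes the groups did not overlap, so any choice of their arrays gives the same sign. The signs are therefore no check of the layout. No row holds both 0 and 60 weeks arrays, so that comparison has no value within a row.

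Lists of secretory and absorptive cell markers also differed between the groups, but their members did not go one way. The summed signal of 15 markers of goblet cells, the mucus-secreting cells of the colon, was 4.70 to 5.86 times the 75th percentile at 0 weeks, 15.6 to 61.3 times at 12 weeks and 18.9 to 26.6 times at 60 weeks. Of the 15, 8, 10 and 10 were well above background on at least 2 arrays of the 0, 12 and 60 weeks groups. Fcgbp, a protein of goblet cell mucus, carried most of this: its level was 1.59, 1.28 and 0.62 at 0 weeks, 5.62, 2.99 and 5.84 at 12 weeks, and the 60 weeks arrays gave 3.78, 4.4 and 4.15. It made up 51.0% to 93.4% of the sum at 12 weeks and 72.9% to 79.5% at 60 weeks. Without it, a split made after its values were seen, the other 14 summed to 2.84 to 3.20 at 0 weeks, 4.06 to 7.63 at 12 weeks and 5.10 to 5.72 at 60 weeks. Clca1, Creb3l1, Creb3l4 and Sytl2 of this list were higher on every 12 and 60 weeks array than on every 0 weeks array. Spdef, a transcription factor of goblet cells, was at -3.68, -3.18 and -3.03 at 0 weeks and at -3.97, -3.27 and -3.89 at 12 weeks, where the groups overlap. At 60 weeks Spdef was at -2.45, -2.72 and -2.88, above every 0 weeks array. Spink4 was lower on every 12 and 60 weeks array than on every 0 weeks array, and at 60 weeks it was above background on 1 of 3 arrays. Tff3 and Atoh1, also on this list, were above background on 1 and 0 of the 9 arrays, and Muc2 had no named probe. The lowest goblet sum at 12 weeks was that of replicate 2, the array with the highest Muc4 and Muc20 levels of its group, but without Fcgbp that array had the highest sum of its group. The sum of 17 colonocyte markers was 557 to 579 at 0 weeks, 487 to 636 at 12 weeks and 373 to 380 at 60 weeks, with 14, 16 and 13 above background. Emp1 and Car2 made up 88.0% to 89.5% of it at 0 weeks. Without them the sum of the other 15 was higher at both later times. It was 58.7 to 68.1 at 0 weeks, 178 to 347 at 12 weeks and 117 to 133 at 60 weeks. Single markers did not all follow this sum. Car1 and Krt20 were higher on every 12 weeks array, and lower on every 60 weeks array, than on every 0 weeks array. Slc26a3 was above background on 0 of the 9 arrays. Slc5a8, a transporter of mature colonocytes, was above background on 0, 3 and 0 arrays at 0, 12 and 60 weeks. Cdhr2, a brush border cadherin, was higher on every 12 and 60 weeks array than on every 0 weeks array, as were Cdhr5 and Ceacam20. The level of Cdhr2 was 3.7, 3.46 and 3.01 at 0 weeks and 6.22, 6.24 and 6.0 at 60 weeks. At 60 weeks it was the brightest colonocyte marker after Emp1 and Car2. In bulk RNA, fewer cells of a type and less RNA per cell cannot be told apart. The part of these differences in the changes of the mucins and enzymes was not tested.

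Markers of cells other than colon epithelium were mixed. Of 8 fibroblast markers, 2, 1 and 2 were above background at 0, 12 and 60 weeks, with sums of 0.248 to 0.333, 0.173 to 0.247 and 0.274 to 0.325 times the 75th percentile, and Dcn, Lum, Pdgfra, Pdgfrb and Thy1 were never above it. Of 6 leukocyte markers, 3 were above background in each group, Cd3e, Itgam and Csf1r, while Ptprc, which marks all leukocytes, was on 0 of 9 arrays, as were Cd79a and Lyz2. The leukocyte sum was 16.6 to 23.4 at 0 weeks, 24.3 to 47.9 at 12 weeks and 27.3 to 34.4 at 60 weeks. It was therefore above the goblet cell sum at 0 and 60 weeks, and Itgam was its brightest member. Of 5 endothelial markers, 2, 3 and 3 were above background, with sums of 8.62 to 10.9, 6.91 to 8.99 and 8.72 to 11.5, mostly from Kdr, while Cdh5 and Tek were on 0 arrays. Of 9 gastric and squamous markers, 4 were above background in every group (Muc5ac, Krt5, Krt14 and Trp63), with sums of 10.3 to 11.2, 7.20 to 8.16 and 6.35 to 7.82 at 0, 12 and 60 weeks. The part of any of these cells in the results was not tested.

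Beyond the 10 genes, 5 lists were examined. They hold other mucins, enzymes that build or cap sugar chains, and genes of nucleotide sugar and sulfate donor supply. Not all of the enzymes act mainly on mucins, as given for St6gal1 below. In these lists 68 genes were tested. At 12 against 0 weeks 25 were higher and 12 lower (54.4% called), at 60 against 0 weeks 24 and 9 (48.5%), and at 60 against 12 weeks 24 and 13 (54.4%), where all tested genes had 41.8%, 32.8% and 38.3%. Their median log2 changes were 0.13, 0.23 and 0.11. These lists too were chosen with earlier results of these data known, so the shares are a description. The genes named here are up to 4 per list in order of the F test's adjusted p among those called at least once. Muc5b, B4galt2, B3galt5 and Fut4 had 0 spots above background at 0 weeks and Cd34 had 1, and these 5 passed the filter only through later groups in which they were high. Fut9 had 0 spots above background at 60 weeks and passed through the 0 and 12 weeks arrays, in which it was higher. A difference was thus built into the passing of all these genes, and their adjusted p-values are given as a description. With the slide row as a block, which leaves 2 of the 60 weeks arrays, the 60 against 0 weeks calls of Cd164, Galnt2, Galnt4, Galnt11, B4galt1, B3galt5, Gne and Papss1 were lost.

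Of the 4 other mucins tested, 1 was higher and 1 lower at 12 against 0 weeks, 2 were higher at 60 against 0 weeks and 2 higher and 1 lower at 60 against 12 weeks. Muc5b, a secreted gel-forming mucin, was at least 7.25-fold higher at 60 than at 0 weeks (adjusted p = 0.000339, limma) and above background on 0, 1 and 3 arrays at 0, 12 and 60 weeks. Cd164, a small sialomucin, followed the order of Muc20, at -0.42 ± 0.14 at 12 against 0 weeks (adjusted p = 0.0428, limma) and 0.54 ± 0.14 at 60 against 0 weeks (adjusted p = 0.0193, limma). Each of these calls was lost when some single arrays were left out. Cd34, a sialomucin of blood progenitors and vessels, was 4.41-fold higher at 12 than at 0 weeks (adjusted p = 0.00123, limma), where only 1 of its 0 weeks spots was above background.

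The polypeptide GalNAc transferases beyond Galnt3 and Galnt12 went both ways. Of 8 tested, 1 was higher and 3 lower at 12 against 0 weeks, 2 higher and 2 lower at 60 against 0 weeks, and 3 higher and 2 lower at 60 against 12 weeks. Galnt10 was 4.72-fold lower at 60 than at 0 weeks (-2.24 ± 0.22, adjusted p = 0.000149, limma). Galnt2 was 1.62-fold lower at 12 than at 0 weeks (-0.69 ± 0.09, adjusted p = 0.000551, limma). Galnt4 (0.70 ± 0.12, adjusted p = 0.00236, limma) and Galnt11 (0.58 ± 0.10, adjusted p = 0.00250, limma) were higher at 60 than at 0 weeks.

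Among 16 core and chain extension enzymes, 4 were higher and 2 lower at 12 against 0 weeks, 7 and 2 at 60 against 0 weeks, and 8 and 2 at 60 against 12 weeks. B4galt2, a relative of B4galt4 that extends chains with galactose, was at least 15.5-fold higher at 12 weeks (adjusted p = 7.52e-06, limma) and at least 17.5-fold higher at 60 weeks (adjusted p = 7.44e-06, limma) than at 0 weeks, where it was below background on all 3 arrays. It therefore stayed high at 60 weeks, when B4galt4 was below background. B3galt5, which builds type 1 chains, was at least 2.17-fold higher at 12 weeks (adjusted p = 0.000130, limma) and at least 1.34-fold higher at 60 weeks (adjusted p = 0.000618, limma) than at 0 weeks, and both calls were lost with normexp. B4galt1, the main galactosyltransferase of the family, was 1.66-fold higher at 60 than at 0 weeks (0.73 ± 0.10, adjusted p = 0.00110, limma). B4galnt3, which like B4galnt2 adds N-acetylgalactosamine, was 3.68-fold lower at 12 than at 0 weeks (-1.88 ± 0.38, adjusted p = 0.00531, limma) and 6.19-fold higher at 60 than at 12 weeks (2.63 ± 0.38, adjusted p = 0.00142, limma).

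The 17 sialyl, fucosyl and sulfo transferases had 10 higher and 1 lower at 12 against 0 weeks, 6 higher and 3 lower at 60 against 0 weeks, and 4 higher and 4 lower at 60 against 12 weeks. The fucosyltransferases Fut4 and Fut9, which can form the Lewis x structure, had the pattern of B4galt4. Fut4 was at least 6.12-fold higher at 12 than at 0 weeks (adjusted p = 3.88e-06, limma) and at least 6.26-fold lower at 60 than at 12 weeks (adjusted p = 4.92e-06, limma), and was below background at both 0 and 60 weeks. Fut9 was 7.37-fold higher at 12 than at 0 weeks (2.88 ± 0.40, adjusted p = 0.000872, limma) and at least 11.3-fold lower at 60 than at 12 weeks (adjusted p = 6.70e-05, limma). The sialyltransferase St3gal1, which caps core 1 chains, was 2.01-fold higher at 12 weeks (1.01 ± 0.17, adjusted p = 0.00226, limma) and 3.96-fold higher at 60 weeks (1.99 ± 0.17, adjusted p = 7.47e-05, limma) than at 0 weeks. St6gal1, which acts mainly on N-linked chains, was 2.94-fold higher at 12 weeks (1.56 ± 0.22, adjusted p = 0.00106, limma) and 6.06-fold higher at 60 weeks (2.60 ± 0.22, adjusted p = 7.89e-05, limma).

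Of 23 genes of nucleotide sugar and sulfate donor supply, 9 were higher and 5 lower at 12 against 0 weeks, 7 and 2 at 60 against 0 weeks, and 7 and 4 at 60 against 12 weeks. Papss2, which makes the sulfate donor PAPS, was 15.5-fold higher at 12 than at 0 weeks (3.96 ± 0.16, adjusted p = 9.95e-07, limma) and 14.2-fold lower at 60 than at 12 weeks (-3.82 ± 0.16, adjusted p = 1.65e-06, limma). Papss1, the other PAPS synthase, went the opposite way, at -0.58 ± 0.11 at 12 against 0 weeks (adjusted p = 0.00380, limma) and 1.12 ± 0.11 at 60 against 12 weeks (adjusted p = 0.000210, limma). Galactokinase, Galk1, was 4.13-fold higher at 12 weeks (2.04 ± 0.22, adjusted p = 0.000222, limma) and 10.9-fold higher at 60 weeks (3.44 ± 0.22, adjusted p = 1.47e-05, limma) than at 0 weeks. Gne, the first enzyme of sialic acid synthesis, was 1.80-fold higher at 12 than at 0 weeks (0.85 ± 0.11, adjusted p = 0.000604, limma).

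**Figure D4:**
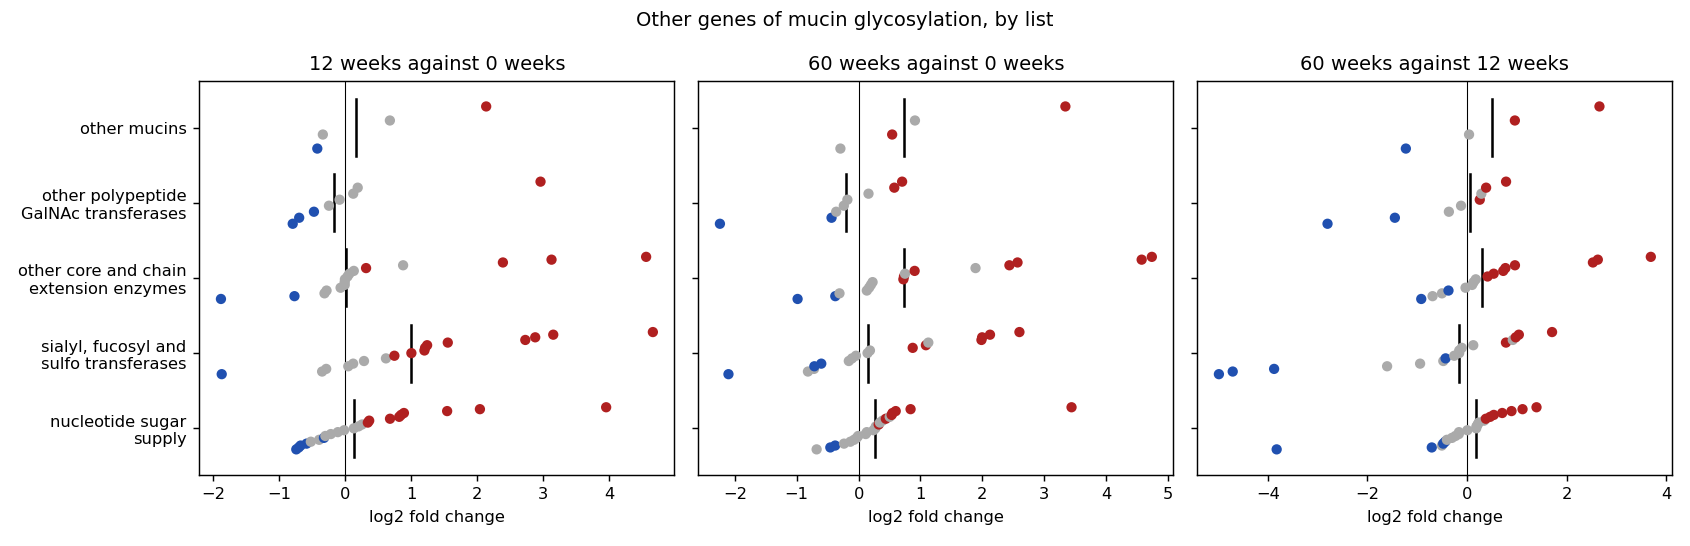
Log2 fold change (horizontal axes) of the 68 other pathway genes, 1 point per gene, in 5 lists (rows) and 3 comparisons (panels); red and blue mark genes called higher and lower, grey points are not called, and black bars are list medians. The sialyl, fucosyl and sulfo transferases have their median at 1.01 at 12 against 0 weeks, and Fut4 and Fut9 of that list lie far to the left at 60 against 12 weeks, where both were below background at 60 weeks, so that the plotted sizes are fitted values and only lower limits hold.

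The genes whose levels followed each of the 10 most closely over the 9 arrays were found by Pearson correlation, a description in which the differences between the 3 groups dominate. Muc1 was followed most closely by Ints6l (r = 0.990) and Apobec1 (r = 0.988), Muc4 by Vtcn1 (r = 0.990) and Cdhr2 (r = 0.989), and Muc13 by Oplah (r = 0.998) and Clca3a1 (r = 0.997). Muc20 was followed by Nsun6 (r = 0.997) and Col18a1 (r = 0.993). Galnt3 was nearest to Ubtd1 and Prkd2 (r = 0.988 each), Galnt12 to Lysmd2 and Cavin4 (r = 0.991 each), C1galt1 to Malat1 (r = 0.991) and Cldn4 (r = 0.988). B4galnt2 was nearest to Fbxl16 (r = 0.991) and Zbtb8a (r = 0.985), and B4galt4 to Lrmda (r = 0.998). Gcnt3, the gene with no called change, had the lowest such values, 0.916 with Map3k11 and 0.912 with Usp43.

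The 4 genes on chromosome 16 did not share a direction. At 12 against 0 weeks B4galt4, Muc13 and Muc4 were higher and Muc20 was lower, while the 450 tested genes of that chromosome had a median of -0.16. At 60 against 0 weeks the chromosome's median was -0.15, with Muc4 and Muc13 called higher and B4galt4 called lower on its brighter probe alone. For the chromosomes of the other 6 genes the medians lay between -0.20 and 0.26 in the comparisons against 0 weeks, and those between 60 and 12 weeks between -0.05 and 0.03.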

How the data were processed

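RNA from 9 organoid samples was labelled with Cy3 from small inputs and hybridised to Agilent single-colour arrays. Per the file headers, the authors quantified the arrays with Feature Extraction 10.7.3.1, whose processed values are background-subtracted intensities on a linear scale, one per spot. The deposited value table gives 42530 of the 55681 non-control probes as a signal equal to the intensity divided by 1 constant per array near its 75th percentile, and served as an alternative; the table's column medians ran from 0.0582 to 0.0733, and it holds no value for the probe used for Muc4 or B4galnt2. Flagged spots were left out, spots of a probe averaged, and each value put on the log2 scale with the array's 75th percentile subtracted. Gene symbols came from matching RefSeq accessions to the GRCm38.p6 annotation (27235 with a symbol, 28446 without). A probe was kept if well above background on at least 2 of 3 arrays of a group, and the brightest kept probe stood for a gene. limma 3.58.1 in R 4.3.3 fitted the changes from all 9 arrays together (lmFit, eBayes), without a replicate block, two-sided, with Benjamini-Hochberg adjustment over 14037 genes; second probes were fitted over all 29903 kept probes. Genes under an adjusted p of 0.05 were called. Where a group had no spot well above background, "at least N-fold" sets the bright group's mean against the lowest signal well above background on each array, or the gene's own value if higher. Some spots brighter than that signal were still not well above background, such as those of Vwf at 0 weeks. The limits therefore hold by this rule and are not detection limits. The fit was tested on simulated data. Precision is limited by the 3 arrays per group.

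The 10 genes, the pathway and marker lists and the naming rule were chosen with earlier results of these data known. The naming rule takes all 10 genes with every probe, up to 4 called genes per pathway list by the F test, and the 2 best-correlated genes for each of the 10, of which 1 is not reported here. Alternatives were background correction, scaling, source of values, filter, choice of probe, groups in the fit, array weights, replicate and slide row blocks, and each array left out. The scanner files used here hold median rather than mean spot signals, so normexp ran on the medians. Replicate numbers were checked for pairing: deviations of same-numbered arrays from their group means correlated between -0.0815 and 0.202 across genes, and not all were above 0.1, so the numbers were not taken to pair arrays. Probe sequences and protein sequences were not used here.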

Additional observations from a re-analysis of the deposited data

How the results depend on the processing

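Each of the 30 changes (10 genes in 3 comparisons) was recomputed under the alternatives, which gave 597 values. Of these, 559 kept the direction and the side of the threshold, 18 lost the call, 14 gained one and 6 turned their sign, and 16 of the 30 changes kept both under every alternative run for them. The 6 that turned were never called: Muc13 at 60 against 12 weeks was -0.19 with quantile normalization, -0.11 with array weights and -0.048 without the 12 weeks replicate 2 array (its range with 1 array left out was -0.048 to 0.21), Gcnt3 at 60 against 12 weeks was -0.027 with quantile normalization and -0.017 with array weights, and Muc20 at 60 against 0 weeks was -0.14 with the slide row block. Using only probes above background on all 9 arrays left 4, 5 and 4 of the 10 genes called in the 3 comparisons (12 against 0, 60 against 0, 60 against 12 weeks), since it removes dim genes from the fit. The slide row block left 3 called at 60 against 0 weeks, with 1392 of all genes called there and 3469 at 60 against 12 weeks, and it leaves out 1 of the 60 weeks arrays. Array weights, lowest for the 12 weeks replicate 2 array at 0.157, raised the count over all genes at 60 against 0 weeks to 7605. The median SD of a gene was 0.112, 0.212 and 0.149 at 0, 12 and 60 weeks, and all 3 groups enter the shared estimate of the spread. With only the 2 groups compared in the fit, 9 of the 10 genes and 5827 of all genes were called at 60 against 0 weeks. Over all genes that fit called 5211 at 12 against 0 weeks and 3748 at 60 against 12 weeks. With the replicate block 7, 8 and 7 of the 10 genes were called in the same order, the added one being C1galt1 in the last (adjusted p = 0.0455, limma), and no count over all genes moved by over 1.5 times. Leaving out 1 array in turn gave 7 to 8, 6 to 9 and 6 to 7 of the 10 genes. Over all genes it gave 4229 to 7405, 3195 to 6021 and 3625 to 7075. Each highest count was reached without the 12 weeks replicate 2 array. Without the 60 weeks replicate 3 array the 10 genes had the same 8 at 12 against 0 weeks and the same 7 at 60 against 12 weeks. Dim spots limit the sizes for Muc1, B4galnt2 and B4galt4. No alternative separates time in culture from treatment.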
